A study of Mus musculus with 7 samples.

Results

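Plac1 is a single X-linked gene, and it was chosen by its difference between genotypes in these libraries, as the largest increase in Setd1b cKO oocytes. Its transcript was 1 of the 33437 oocyte transcripts in the deposited table, and the 8 other transcripts that start within 500 kb of it on either strand were taken as its neighbourhood. Transcription was measured in germinal vesicle (GV) oocytes, fully grown oocytes arrested before meiosis resumes, from 21-day-old C57BL6 females (C57BL/6OlaHsd in the study's methods). In both groups Setd1b was floxed/floxed. The Setd1b cKO oocytes (4 libraries) were Gdf9-Cre positive, so that the floxed segment was excised in oocytes from early folliculogenesis onwards while the somatic cells of the ovary kept the gene, and the Setd1b WT oocytes (3 libraries) were Gdf9-Cre negative. The breeding scheme in the study's methods also counts Cre-positive females with 1 intact allele as Setd1b WT. Each library held 1 oocyte, with no label for its mother, so the spread between libraries is a spread between oocytes. The libraries are written cKO 1 to cKO 4 and WT 1 to WT 3.

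PLAC1 is a small protein with a signal peptide and a domain related to the N-terminal part of the zona pellucida (ZP) module, which it shares with the oocyte-secreted proteins OOSP1, OOSP2 and OOSP3. The gene is best known from the placenta, where trophoblast cells express it and where its loss in mice disturbs placental growth, and it is switched on in many human tumours. SETD1B is a methyltransferase that places methyl groups on lysine 4 of histone H3, a mark of active promoters.

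The oocyte transcript of Plac1 ran from 53114530 to 53069996 on the minus strand of chromosome X (GRCm38), a span of 44.5 kb. Both ends were the same to the base as those of 1 of the 3 Plac1 transcripts in GENCODE M21, which has 3 exons, 1201 exonic bases and a coding sequence for 173 residues that lies wholly in exon 3. The other 2 annotated transcripts begin 95.2 kb and 125.6 kb further upstream, at 53209724 and 53240111, and read the same coding exon. The start of the oocyte transcript is therefore the most downstream, or proximal, of 3 annotated start sites. A start 100 kb or more inside the most upstream annotated start was seen for 181 (1.65%) of the 10991 named transcripts tested. No other transcript of the table overlapped the Plac1 transcript on either strand. Reads spliced from a distal first exon into exon 3 would have been counted within the same span, so the values below do not separate the starts.

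The 125 bases before the proximal and before the most distal start are shown because they are the DNA where the annotated Plac1 transcripts begin. Both are from RefSeq (GRCm38.p6), minus strand, 5′ to 3′, and the capitals mark the single match to a NOBOX-type homeobox motif.

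Proximal, chrX:53114531-53114655: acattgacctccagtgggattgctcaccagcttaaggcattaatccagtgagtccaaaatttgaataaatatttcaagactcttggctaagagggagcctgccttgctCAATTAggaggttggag
Distal, chrX:53240112-53240236: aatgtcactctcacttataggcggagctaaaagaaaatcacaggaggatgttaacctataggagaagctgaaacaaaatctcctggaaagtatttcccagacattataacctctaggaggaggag

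The motif TAATTG, of which CAATTA is the other strand, lay 17 bases before the GENCODE proximal start. NOBOX is an oocyte homeobox factor, and 16.1% of the 32817 RefSeq promoter windows held it or a variant of the type (with TAATTA and then TAGTTG as further spellings, both strands) in the 250 bases before the start. RefSeq places the proximal start 125 bases inside the GENCODE one, and in the 250 bases before it there was also 1 match each to the E-box CAGGTG, found in 17.2% of windows, to the TATA motif with the letters TATATA, which with its other spelling TATAAA was found in 15.6%, and to the GC box GGGCGG, found in 32.7%. The LHX8-type motif TGATTG, held by 12.7% of windows, was not in it. Counted in bases before the GENCODE start, the E-box stood at -1, TATATA at -98 and the GC box at -57. These matches therefore began inside the oocyte transcript, not before it. The 250 bases before the distal RefSeq start held a match to none of these motifs. The proximal window of 300 bases had 6 CpG and 49.7% GC, the distal window 3 CpG and 42.7% GC, and the median over all windows was 7 CpG and 52.7% GC. The motifs were chosen after the sequences had been seen, and the matches only describe these letters.

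In the Setd1b cKO, Plac1 stood at 72.6 reads per 1000000 mapped reads (RPM) in cKO 1, 58.9 RPM in cKO 2, 55.4 RPM in cKO 3 and 64.6 RPM in cKO 4. In the Setd1b WT it stood at 0.810 RPM in WT 1, 1.46 RPM in WT 2 and 9.54 RPM in WT 3. The genotypes did not overlap, and the lowest cKO oocyte was 5.80 times the highest WT oocyte. From 554 to 734 reads lay behind each cKO value, but 10 reads in WT 1, 19 in WT 2 and 102 in WT 3. The exact Poisson 95% intervals of the WT values, which cover counting error only, were 0.388 to 1.49 RPM in WT 1, 0.882 to 2.29 RPM in WT 2 and 7.78 to 11.6 RPM in WT 3. Counting error therefore did not separate WT 1 from WT 2, whereas WT 3 lay outside the intervals of both.

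**Figure D1:**
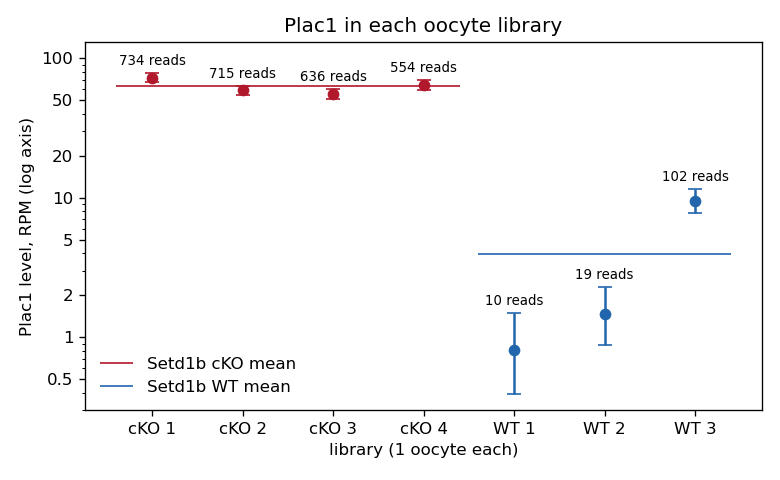
Level of Plac1 in RPM (log axis) in each of the 7 oocyte libraries, with the number of reads behind each value. Points are libraries, bars are exact Poisson 95% intervals and horizontal lines are group means. The 4 cKO oocytes sit between 55.4 and 72.6 RPM and the 3 WT oocytes between 0.810 and 9.54 RPM, with WT 3 above the other 2.

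The 4 cKO oocytes had a mean of 62.9 RPM (SD 7.54), whereas the mean of the 3 WT oocytes was 3.94 RPM (SD 4.86). On the log2(RPM + 1) scale the difference between genotypes was 4.14 (SE 0.50). Since Plac1 was selected on this contrast, the difference is a description and was not tested. It was the largest of the 18179 transcripts tested, against a median of 0.12. The pseudocount of 1 RPM bears on that place, since the WT oocytes held few reads. With 0.1 RPM the difference was 4.71 and 15th in size, with 5 RPM 3.05 and 2nd, and with voom on the recovered reads 4.85 and 33rd. Among the 6721 transcripts with a symbol and a mean of at least 8 RPM, Plac1 ranked 1st in all of the 19 fits except the one with 5 RPM, where it ranked 2nd.

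The oocytes of the cKO were close to each other, and those of the WT were not. The highest and lowest cKO values differed 1.31-fold, and the SD of log2(RPM + 1) was 0.17, against a median SD of 0.34 among the 2105 transcripts with a mean of 40 to 100 RPM in the cKO. In the WT the highest value was 11.8 times the lowest and 6.52 times the next, and the SD was 1.36. Of the 5128 transcripts with a mean of 2 to 8 RPM in the WT, 99.3% had a smaller SD. Without WT 3 the log2 difference was 4.91, and when each of the other libraries was left out it lay between 3.64 and 4.20.

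The high value of WT 3 was set beside the other transcripts to see how often 1 WT oocyte stands so far above the others. Among 17618 transcripts, the highest WT value was at least 4 times the next in 143 (0.812%) with WT 3 as the highest, in 102 (0.579%) with WT 1 and in 50 (0.284%) with WT 2. Of the other 682 transcripts past the threshold and higher in the cKO, WT 3 was the highest WT oocyte in 330. Plac1 was thus among the few transcripts with a single WT oocyte so far above the rest.

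Hprt and Phf6 lie downstream of the 3′ end of Plac1, on the other strand. Hprt, which encodes the purine salvage enzyme hypoxanthine phosphoribosyltransferase, ends 48.3 kb from the Plac1 transcript. Its level was 155, 181, 223 and 138 RPM in cKO 1 to cKO 4 and 144, 163 and 127 RPM in WT 1 to WT 3. The values overlapped, and the log2 difference of 0.25 (SE 0.22) did not pass the threshold of a limma adjusted p under 0.05 and more than 2-fold (adjusted p = 0.588). Phf6, a PHD finger protein of the nucleus, had 161, 160, 147 and 185 RPM in the cKO and 158, 171 and 165 RPM in the WT. Its log2 difference was -0.01 (SE 0.19, limma adjusted p = 0.981), the smallest of the neighbourhood.

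On the upstream side the nearest transcript was Fam122b, whose 3′ end lay 128.9 kb from the proximal start of Plac1, on the same strand. It had 8.81, 12.4, 9.66 and 8.16 RPM in the cKO and 12.0, 8.25 and 6.83 RPM in the WT, values that overlapped (log2 difference 0.12, SE 0.28, limma adjusted p = 0.856). Mospd1, a protein with a motile sperm domain, had 246, 286, 212 and 73.4 RPM in the cKO and 371, 354 and 184 RPM in the WT. Here cKO 4 lay far below the other oocytes, and the log2 difference was -0.67 (SE 0.44, limma adjusted p = 0.434). A pair of unnamed transcripts that start 331 kb and 381 kb away had log2 differences of 0.50 and 0.45 (limma adjusted p = 0.475 and 0.473). Gm14584 and Etd were at 1.15 RPM or less in every library and were not tested.

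None of the 6 neighbours tested passed the threshold, at a background of 5.71% of all transcripts tested, and with 6 transcripts a share of 0 cannot be read apart from that background. Their log2 differences ran from -0.67 to 0.50, and that of Plac1 was 4.14. The standard errors of the neighbours ran from 0.19 to 0.44, and a call needs a difference of several standard errors that is also over 1 on the log2 scale, so smaller differences are not called. The nearest transcript past the threshold started 707 kb away, on the plus strand inside Gpc3, whose gene lies on the minus strand. It had 3.96, 5.27, 4.70 and 8.97 RPM in the cKO and 0.243, 0.771 and 0 RPM in the WT (log2 difference 2.32, SE 0.34, limma adjusted p = 0.00521), with at most 10 reads in a WT library. Whether its reads came from the plus strand was not tested, so they may belong to Gpc3. On the other side the nearest was Gm14718, which started 4053 kb away and was lower in the cKO (log2 difference -2.15, SE 0.44, limma adjusted p = 0.0184). Of the 33 transcripts between these 2, Plac1 not counted, 16 were tested.

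**Figure D2:**
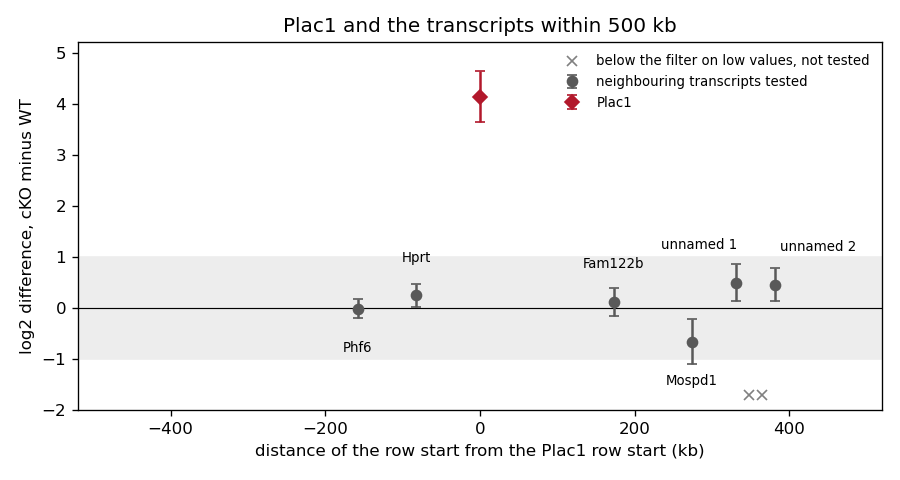
Log2 difference, cKO minus WT, on the log2(RPM + 1) scale, for Plac1 (diamond) and the transcripts that start within 500 kb of it (circles), against the distance of their start coordinates in kb. Bars are standard errors, the grey band is 2-fold either way, and crosses mark 2 transcripts that were not tested, drawn at no value. The 6 neighbours tested lie between -0.67 and 0.50, with all 6 points inside the band.

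On the whole X chromosome 639 transcripts were tested, of which 20 were higher, Plac1 itself among them, and 12 lower in the cKO (5.01%), and on the autosomes 663 were higher and 343 lower of 17540 (5.74%). The median log2 difference was 0.11 on the X and 0.12 on the autosomes. Plac1 left out, X-linked transcripts held 2.46% (SD 0.158, n = 4) of all transcript reads in the cKO, whereas the WT share was 2.45% (SD 0.127, n = 3; exact two-sided permutation test over 35 splits, p = 1). The difference of 0.012 percentage points was smaller than the spread within either group.

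The 3 next largest increases, by the same measure and with a symbol and a mean of at least 8 RPM, lay on other chromosomes. Iqschfp (chromosome 3), a read-through gene, had 146, 76.3, 106 and 62.6 RPM in the cKO and 6.88, 12.1 and 4.87 RPM in the WT, a log2 difference of 3.47 (SE 0.35). A transcript on chromosome 18 that the table names after Gm22508, a small RNA gene inside its span, had 210, 276, 529 and 231 RPM in the cKO and 24.6, 29.5 and 31.6 RPM in the WT, a log2 difference of 3.31 (SE 0.31). The values of both transcripts left a clear gap between the genotypes. A short transcript from the 3′ end of Fam126a (chromosome 5) had 13.1, 12.8, 14.7 and 41.6 RPM in the cKO and 1.21, 0.540 and 1.31 RPM in the WT, a log2 difference of 3.25 (SE 0.41). It covered 119 of the 1951 coding bases of Fam126a, and the transcript that covers 1832 of them had a log2 difference of -0.79 (SE 0.36, limma adjusted p = 0.229). In WT 3, where Plac1 was high, Iqschfp was at its lowest and the other 2 were at their highest by a small margin.

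Genes of proteins related to PLAC1 were measured in these oocytes, and none was past the threshold as higher in the cKO. Of the list of 16 relatives by the PLAC1-like domain or the ZP module, 11 were in the table by symbol and 10 were tested. Of these 0 were higher (background 3.76% of transcripts) and 1 was lower (background 1.95%), with a median log2 difference of -0.50 beside 0.12 over all transcripts. With 10 tested, 0 higher cannot be read apart from that background. The 1 that passed was Oosp3, a gene of the oocyte-secreted protein family, with 406, 315, 341 and 663 RPM in the cKO and 926, 1089 and 1807 RPM in the WT. Its genotypes did not overlap, and the log2 difference was -1.56 (SE 0.32, limma adjusted p = 0.0180). Without cKO 1, cKO 3 or WT 2 it lost the call (limma adjusted p up to 0.0709 with each library left out in turn).

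The other 2 members of that family had values below the threshold. Oosp1 had 1239, 1013, 1310 and 1988 RPM in the cKO and 1757, 2190 and 2887 RPM in the WT (log2 difference -0.73, SE 0.29, limma adjusted p = 0.165). Oosp2 had 408, 336, 445 and 790 RPM in the cKO and 734, 812 and 1616 RPM in the WT (log2 difference -1.07, SE 0.35, limma adjusted p = 0.101). For all 3 genes cKO 4 was the highest cKO oocyte and WT 3 the highest WT oocyte. Among the ZP proteins, which form the egg coat, Zp3 was at 3441 to 4234 RPM in the cKO and 4743 to 4891 RPM in the WT (log2 difference -0.35, limma adjusted p = 0.433), and Zp2 at 751 to 3201 RPM and 1033 to 3007 RPM (log2 difference -0.13, limma adjusted p = 0.923). Umodl1, an oocyte protein with a ZP module, was at 2184 to 2789 RPM and 3131 to 3387 RPM (log2 difference -0.43, limma adjusted p = 0.306).

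The genes known to regulate or to work with PLAC1 in trophoblast or tumour cells did not include an increase past the threshold. Of 16 such genes 12 were in the table by symbol and 10 were tested, with 0 higher (background 3.76%) and 1 lower (background 1.95%). Their median log2 difference was -0.26, and with 10 tested, 0 higher cannot be read apart from that background. A match by GENCODE span, chosen after the data were seen, adds Cebpb, Trp53 and Fgf7. Their log2 differences were -0.64, 0.34 and -0.29, none past the threshold. Nr1h2, a liver X receptor that pairs with retinoid X receptors, had a log2 difference of -0.01 (limma adjusted p = 0.993), and Rxra, such a partner, of -0.54 (limma adjusted p = 0.304). For the coactivators Ncoa2 and Ncoa3 it was 0.76 (limma adjusted p = 0.0964) and 0.11 (limma adjusted p = 0.860). Ncoa2 was at 29.6 to 45.2 RPM in the cKO and 17.9 to 27.7 RPM in the WT, so its genotypes did not overlap, as for 20.3% of all transcripts tested. Esr1, the oestrogen receptor, overlapped between the genotypes (log2 difference -0.77, limma adjusted p = 0.276), as did Akt1, a kinase downstream of growth factor receptors (-0.37, limma adjusted p = 0.469), and Ncstn, a subunit of gamma-secretase (-0.28, limma adjusted p = 0.785).

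The 1 call of this list was a transcript on chromosome 7 that the table names Fgfr2 (log2 difference -1.49, SE 0.36, limma adjusted p = 0.0352), and it does not hold the gene. The table gives that name to 24 transcripts of the strand, and the one called, from 132987584 to 133123367, covers none of the 2810 coding bases of Fgfr2. The transcript that covers all of them, from 130162525 to 130262453, had 11.8, 13.4, 10.01 and 16.3 RPM in the cKO and 13.2, 16.7 and 16.6 RPM in the WT (log2 difference -0.26, limma adjusted p = 0.611). With it in the list none of the 10 was past the threshold.

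Other genes of trophoblast and placenta were examined because Plac1 is named after that tissue. Of 42 genes 22 were in the table by symbol and 12 were tested, with 0 higher (background 3.76%) and 2 lower (background 1.95%). Their median log2 difference was -0.18, and with 12 tested, 0 higher cannot be read apart from that background. Of the regulators and markers of trophoblast, Elf5, Tead4 and Tpbpa were at 0 to 0.308 RPM and Eomes at 0 to 1.29 RPM over all libraries, whereas Tfap2c was at 4.26 to 10.8 RPM in the cKO and 8.89 to 10.2 RPM in the WT (log2 difference -0.41, limma adjusted p = 0.533). Gata3, a transcription factor of trophoblast and other tissues, had 18.7, 24.5, 23.8 and 18.99 RPM in the cKO and 35.1, 39.1 and 51.0 RPM in the WT. Its genotypes did not overlap, but the log2 difference of -0.92 (SE 0.23, limma adjusted p = 0.0417) was under 2-fold and so not past the threshold, which it passed with centring on the median transcript (-1.07). Esrrb, an orphan nuclear receptor of trophoblast stem cells and germ cells, fell from 134, 125 and 175 RPM in the WT to 41.9, 33.5, 54.2 and 34.5 RPM in the cKO (log2 difference -1.80, SE 0.24, limma adjusted p = 0.00359). Pparg, a nuclear receptor needed for placental development, fell from 117, 117 and 101 RPM to 57.7, 47.9, 49.2 and 50.2 RPM (log2 difference -1.10, SE 0.19, limma adjusted p = 0.0101), a call that was lost without WT 1 or WT 2 (limma adjusted p up to 0.0611). Plac8, which shares the name but not the sequence family, was at 501 to 1078 RPM in the cKO and 832 to 1481 RPM in the WT (log2 difference -0.61, limma adjusted p = 0.293). Cited2, a transcriptional coregulator, was at 37.5 to 76.2 RPM and 22.3 to 44.3 RPM (log2 difference 0.59, limma adjusted p = 0.300). Cdkn1c was at 7.62 to 21.3 RPM and 4.09 to 11.9 RPM (log2 difference 0.80, limma adjusted p = 0.287). A match by GENCODE span, chosen after the data were seen, adds Synb. It was at 41.1 to 120 RPM in the cKO and 25.9 to 42.7 RPM in the WT, values that overlapped (log2 difference 1.04, limma adjusted p = 0.103).

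**Figure D3:**
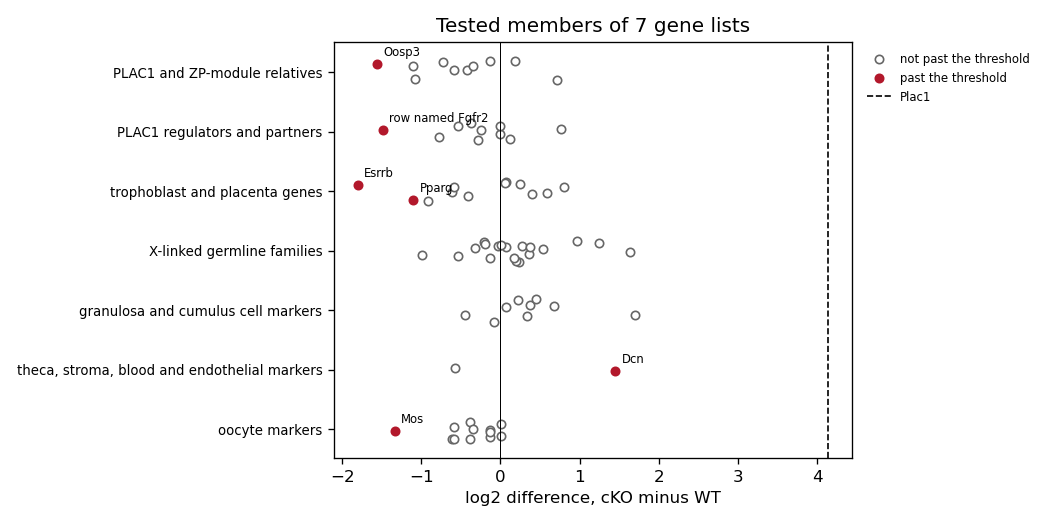
Log2 difference, cKO minus WT, on the log2(RPM + 1) scale for the tested members of 7 gene lists, each circle a gene and filled where it passed the threshold. The dashed line marks Plac1 at 4.14, and no tested member of the lists lies above 1.70. The filled circles are Oosp3, the transcript named Fgfr2, Esrrb, Pparg and Mos below 0, and Dcn above.

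The X chromosome also holds multicopy families that are expressed in germ cells and placenta. Of 47 such genes (Rhox, Xlr, Mage, Ssx and others) 43 were in the table and 19 were tested, with 0 past the threshold in either direction, a share that cannot be read apart from the background of 5.71%, and a median log2 difference of 0.17, while 9 had 0 reads in every library. Xlr3a was at 210 to 339 RPM in the cKO and 263 to 319 RPM in the WT (log2 difference -0.13, limma adjusted p = 0.807), and Rhox3g at 166 to 250 RPM and 168 to 242 RPM (log2 difference -0.03, limma adjusted p = 0.961). Copies of these families are nearly identical, so reads of one may be counted for another or dropped. Xlr4a (log2 difference 0.01, limma adjusted p = 0.995) and Tex11, a meiotic recombination gene (0.19, limma adjusted p = 0.730), also overlapped between the genotypes. Others of the list, chosen after their values were seen, lay further from 0 without passing the threshold. Maged1, of the MAGE family, had 7.92, 9.97, 12.3 and 2.80 RPM in the cKO and 1.86, 2.93 and 0.748 RPM in the WT (log2 difference 1.63, SE 0.45, limma adjusted p = 0.0595), and was past it in 3 of 18 alternatives. Xlr5a had 9.90, 33.3, 37.3 and 27.7 RPM in the cKO and 9.56, 8.02 and 11.7 RPM in the WT (log2 difference 1.25, SE 0.40, limma adjusted p = 0.0978), and was past it in 1 of 18. Both overlapped between the genotypes, whereas Magea10, at 8.74 to 32.7 RPM in the cKO and 35.2 to 57.2 RPM in the WT, did not (log2 difference -0.99, SE 0.41, limma adjusted p = 0.191).

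Markers of the somatic cells that surround an oocyte were read beside Plac1. Of 21 granulosa and cumulus cell markers 19 were in the table and 9 were tested, with 0 past the threshold (background 5.71%) and a median log2 difference of 0.33. Their summed level was 343 to 521 RPM in the cKO and 275 to 462 RPM in the WT, and most of its reads fell in Bmpr1b, Serpine2, Nr5a2 and Cyp19a1. For 2 of the 9 the genotypes did not overlap, with the cKO higher, beside 20.3% of all transcripts tested without overlap in either direction. With 9 transcripts neither count can be read apart from its background. Bmpr1b, a receptor of bone morphogenetic proteins, was at 205 to 252 RPM in the cKO and 162 to 180 RPM in the WT (log2 difference 0.37, limma adjusted p = 0.291). Nr5a2, a nuclear receptor and the other of the 2, was at 32.5 to 50.8 RPM and 27.4 to 28.3 RPM (log2 difference 0.44, limma adjusted p = 0.281). Serpine2 was at 44.9 to 200 RPM and 43.0 to 213 RPM, and Cyp19a1 at 19.5 to 30.6 RPM and 17.1 to 27.3 RPM. Inha, the inhibin alpha subunit made by granulosa cells, had 7.03, 11.4, 13.2 and 0.583 RPM in the cKO and 0.810, 4.32 and 0 RPM in the WT, values that overlapped (log2 difference 1.70, SE 0.76, limma adjusted p = 0.225). Gja1, a gap junction protein, had 0.891 to 5.14 RPM and 0.0936 to 2.31 RPM (log2 difference 0.67, limma adjusted p = 0.458). Of the markers that were not tested, Hsd17b1 was at 0 to 2.06 RPM in the cKO and 0 to 0.486 RPM in the WT, and Wt1 at 0.0990 to 0.494 RPM and 0 to 0.0936 RPM, while Foxl2, Amh and Nr5a1, which define granulosa cells, were at 0 to 0.412 RPM over all libraries. Of 10 markers of theca, stroma, blood and endothelium 7 were in the table and 2 were tested, with 1 higher (background 3.76%), and the summed level was 14.1 to 23.5 RPM in the cKO and 16.3 to 21.7 RPM in the WT. Haemoglobin genes (Hba-a1 and Hbb-bs) had 0 reads in every library. Dcn, a proteoglycan of connective tissue, rose from 0.891, 1.62 and 3.09 RPM to 5.15, 7.25, 6.62 and 6.87 RPM (log2 difference 1.45, SE 0.32, limma adjusted p = 0.0248). This call was lost without cKO 2, cKO 3, WT 1 or WT 2 (limma adjusted p up to 0.111), and Col1a1, another stromal gene, was at 0.174 to 0.486 RPM in every library. Pecam1, a marker of endothelium, was at 7.31 to 18.0 RPM and 13.0 to 19.5 RPM (log2 difference -0.57, limma adjusted p = 0.369). The part of such cells in the difference of Plac1 was not tested.

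The oocyte identity of the libraries was checked with 12 oocyte markers, all of which were tested, with 0 higher (background 3.76%), 1 lower (background 1.95%) and a median log2 difference of -0.37. Their summed level was 25953 to 28111 RPM in the cKO and 31065 to 33689 RPM in the WT, without overlap and lower in the cKO, and its part in the difference of Plac1 was not tested. Dppa3, H1foo and Gdf9 were at 6475 to 10654, 4256 to 7253 and 1528 to 4963 RPM over the 7 libraries. The 1 call was Mos, the kinase that holds the mature egg in metaphase, which fell from 551, 406 and 500 RPM in the WT to 196, 204, 163 and 201 RPM in the cKO (log2 difference -1.34, SE 0.20, limma adjusted p = 0.00581). Nobox, whose motif type was searched above, was at 250 to 884 RPM in the cKO and 436 to 850 RPM in the WT (log2 difference -0.13, limma adjusted p = 0.90).

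Over the series, 1038 transcripts passed the threshold, 683 (3.76%) higher and 355 (1.95%) lower in the cKO. Centring on the median transcript moved the median log2 difference from 0.12 to -0.03 and the share of calls that were higher from 65.8% to 46.3% (49.2% with quantile normalisation), and with it Plac1 stood at 3.98. Setd1b itself, read over its whole transcript, was at 8.31, 16.7, 12.8 and 2.68 RPM in the cKO and 17.7, 16.3 and 8.61 RPM in the WT (log2 difference -0.61, SE 0.49, limma adjusted p = 0.533). A transcript that keeps the bases outside the floxed segment is still counted, so this value does not check the labels. The share of mapped reads outside the oocyte transcripts was 13.2 to 16.4% in the cKO and 9.57 to 9.90% in the WT, and its part in any difference was not tested.

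Finally, the transcripts most like Plac1 were found by Pearson's r of log2(RPM + 1) over the 7 libraries, among 6720 others with a symbol and a mean of at least 8 RPM. The r is a description: the 7 points share their libraries, and the gap between the genotypes weighs most in it. The highest were Casc4 (r = 0.993), Ino80c (0.982), a subunit of the INO80 chromatin remodelling complex, Chrna1 (0.981), a subunit of the muscle acetylcholine receptor, Gm14164 (0.980), A330069E16Rik (0.977), Sirt1 (0.976), an NAD-dependent deacetylase, Iltifb (0.976), a copy of the interleukin 22 gene with which it may share reads, Phykpl (0.976), a lyase, Nmnat1 (0.974), an enzyme of NAD synthesis in the nucleus, and Gm11914 (0.974). None lies on the X chromosome. All 10 had WT 3 as the highest WT oocyte and all cKO oocytes above it.

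Casc4 came closest, at 178, 149, 137 and 183 RPM in the cKO and 31.3, 41.2 and 68.4 RPM in the WT, a log2 difference of 1.83 (SE 0.27). Chrna1 was at 75.2, 62.3, 77.9 and 100 RPM in the cKO and 14.0, 19.7 and 33.5 RPM in the WT, a log2 difference of 1.84 (SE 0.30). Sirt1 was at 44.6, 46.3, 46.4 and 45.1 RPM in the cKO and 22.8, 23.8 and 26.9 RPM in the WT, a log2 difference of 0.87 (SE 0.19). In these 3 transcripts the WT oocytes stood in the same order as for Plac1, and the cKO oocytes did not. The log2 differences of the 10 ran from 0.87 for Sirt1 to 1.86 for A330069E16Rik, so none came near that of Plac1. In all 43 transcripts had an r of at least 0.95, and 8 of the 10 were among the first 10 with a pseudocount of 0.1 RPM. By rank the likeness was lower, since 2 of the 10 had a Spearman coefficient of at least 0.95 and those of Ino80c and Iltifb were 0.607, that of Sirt1 0.643 and that of Gm11914 0.679. The most opposite pattern was that of Gpx6 (r = -0.992), a glutathione peroxidase gene, with 6.43, 7.17, 9.40 and 5.71 RPM in the cKO and 52.9, 53.6 and 22.5 RPM in the WT.

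**Figure D4:**
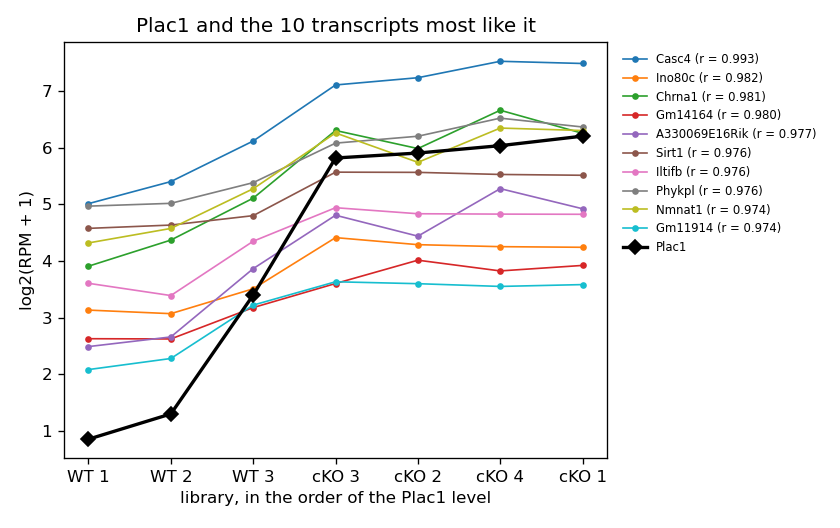
Level on the log2(RPM + 1) scale of Plac1 (black) and of the 10 transcripts with the highest Pearson r to it (r in the legend), in the 7 libraries ordered by the Plac1 level. Every line is at its lowest in WT 1 or WT 2, and all rise through WT 3 to the 4 cKO libraries, but Plac1 spans a wider range than the other 10.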

How the data were processed

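The deposited values were log2 RPM, which the authors scaled to the mapped reads of each library and derived in SeqMonk for oocyte transcripts known from an earlier assembly, isoforms being merged. They amplified the cDNA of single oocytes with the SMARTer Ultra Low kit, sequenced single reads and mapped them with Hisat to GRCm38, without hits of low mapping quality. The submitters' processing notes also name bcl2fastq 1.8.4 and featureCounts 1.4.4. The study's methods describe libraries made from amplified cDNA with a DNA library kit and name no step that keeps the strand. Reads of a transcript and of another on the opposite strand at the same place may therefore not be separated.

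Values were raised from the log scale, and 100% were whole reads within 0.1% of the value of 1 read, with 0.9 read in place of 0. Totals so recovered ran from 8582493 to 12972366 mapped reads per library, so that 1 read was worth 0.0771 to 0.117 RPM and 3 reads 0.231 to 0.350 RPM. Within the cKO, Pearson's r between libraries across transcripts was 0.907 to 0.968, within the WT 0.944 to 0.973, and between them 0.877 to 0.944.

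The genotypes were compared on log2(RPM + 1) for the 18179 transcripts that reached 1 RPM in 3 or more libraries, using limma 3.58.1 (lmFit, eBayes with trend; R 4.3.3) and no covariate, Benjamini-Hochberg adjusted over all of them. A call needed both an adjusted p under 0.05 and more than a 2-fold change, and fold changes on this scale understate those of low transcripts. P-values measure the spread between oocytes. A member was the row with the symbol on its own strand, of the highest mean if several. 15476 symbols were so assigned. Named were Plac1, its neighbours with a symbol, the 3 next increases, the 10 transcripts with the highest r to Plac1, Setd1b, and of each list the members called and up to 4 of the highest mean. Other list members and the chromosome X transcripts were chosen after their values were seen. Plac1, its neighbourhood and the lists were chosen with earlier results of these data known. Other computations used Python 3.11.15, numpy 2.4.6, pandas 2.3.3 and scipy 1.17.1. Alternatives were other pseudocounts, the deposited log2 values, other filters, scalings and totals, eBayes without trend, voom, a replicate block and each library left out. A match of list members by GENCODE span, and by the transcript with most coding bases, was chosen after seeing the data. 1 of the X-linked genes past the threshold is not reported here.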

Additional observations from a re-analysis of the deposited data

Results flagged for a closer look

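Among 52 sets of 4 cKO values examined, 3 held 1 library far from the other 3 by Dixon's ratio, a rate that chance gives in about 1 in 20 groups. The short Fam126a transcript was at 41.6 RPM in cKO 4 and at 12.8 to 14.7 RPM in the other cKO oocytes (ratio 0.932). Iltifb was at 29.7 RPM in cKO 3 and at 27.3 to 27.5 RPM in the others (ratio 0.919). Nmnat1 was at 52.5 RPM in cKO 2 and at 75.6 to 80.3 RPM in the others (ratio 0.831). Plac1 was not among them in the cKO, and groups of 3, such as the WT, were not examined in this way.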

How the results depend on the processing

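The log2 difference of Plac1 stayed above 0 under each of 18 alternatives, from 3.05 (5 RPM) to 4.91 (without WT 3), and lay between 3.64 and 4.91 with 1 library left out. No neighbour within 500 kb was called in any fit, and within 1000 kb 1 of 12 was. The transcripts called (1038) became 553 with 5 RPM and 303 with no filter, which tests more transcripts, and 280 to 1287 with 1 library left out, fewest without WT 2 or WT 1 (372). With quantile normalisation 870 were called, with voom 771 and with reads within transcripts as the total 1146, of which 72.9% were higher. Calls on chromosome X (32) became 19 with 5 RPM, 9 with no filter and 10 to 48 with 1 library left out. The cause of these moves was not tested.

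Of the lists, the PLAC1 relatives held 2 calls with median centring or quantile normalisation, 0 with no filter and 0 to 2 with 1 library left out. The regulators and partners held 0 with no filter or with the transcript of most coding bases, and 0 to 1 with 1 library left out. The trophoblast list held 3 with median centring and 1 to 2 with 1 library left out. The X-linked families held 1 with reads within transcripts as the total and 0 to 1 with 1 library left out, the granulosa list 0 to 1 with 1 library left out, and the theca, stroma and blood list 0 with 5 RPM, no filter or quantile normalisation and 0 to 1 with 1 library left out. The difference in the X share of reads was -0.107 percentage points as a share of all mapped reads and -0.059 to 0.070 with 1 library left out, below 0 without cKO 2, cKO 3 or WT 3.

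Samples with the same number deviated with r = 0.192, 0.294 and -0.129 for numbers 1, 2 and 3, so 1 of the 3 pairs was not over 0.1, and the labels give the numbers no meaning, so they were not taken as pairs. Of the 3 WT libraries 1 (WT 2) correlated best with the cKO library of its own number. With a replicate block, which takes nothing from cKO 4 for lack of a partner, 1403 transcripts were called, 63 of them on chromosome X, with 2 in the PLAC1 relatives, 1 in the X-linked families and 1 in the granulosa list, and the difference of Plac1 was 4.12.

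With 4 and 3 oocytes and 10 or 19 Plac1 reads in WT 1 and WT 2, the WT level is the least certain value.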

Other observations

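Some low transcripts of the X-linked Rhox cluster, homeobox genes of germ cells and placenta, held more reads in the cKO than in the WT, below the filter on low values and without a test. Rhox2a was at 0.594, 0.247, 1.74 and 1.05 RPM in the cKO and at 0.0810, 0.0771 and 0.0936 RPM in the WT, where each value is 1 read. Rhox2c was at 0.198, 0, 0.784 and 0.117 RPM in the cKO and at 0 in the 3 WT libraries. These copies are nearly identical to each other, so the reads of one may belong to another.

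Other X-linked transcripts past the threshold, chosen after their values were seen, lay far from Plac1. Hsd17b10, a mitochondrial dehydrogenase, was at 36.8, 34.8, 50.5 and 46.5 RPM in the cKO and 9.07, 10.9 and 6.74 RPM in the WT (log2 difference 2.13, SE 0.25, limma adjusted p = 0.00279). Irak1, a kinase of interleukin receptor signalling, was at 195, 123, 109 and 201 RPM and 45.8, 52.3 and 45.8 RPM (log2 difference 1.64, SE 0.26, limma adjusted p = 0.00645). In the other direction Btk, a tyrosine kinase of blood cells, was at 4.45, 3.87, 3.83 and 2.80 RPM and 18.8, 15.4 and 15.7 RPM (log2 difference -1.90, SE 0.25, limma adjusted p = 0.00396). WT 3 was the highest WT oocyte for none of these 3.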
